A study of Mus musculus with 3 samples.

Results

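The 3 genes C1qa, C1qb and C1qc encode the chains of complement C1q, and they are described here across cells sorted from the subventricular zone of mice, the wall of the lateral ventricle where adult stem cells reside. They were taken by name as 3 of the 16178 genes in the deposited expression table. The samples are 3 plates, which form 1 group. Cells came from male C57BL/6J mice supplied by Envigo, with 8 mice used per experiment and no treatment or other genotype named. The tissue was dissociated with trypsin, myelin was removed in 2 of 3 experiments that the labels do not name, and cells bearing GLAST, the glutamate transporter encoded by Slc1a3, were selected on magnetic beads before the sort, so the microglia present are those that passed that selection. The autofluorescence of each sorted cell, light emitted without any dye, was recorded before its RNA was read with SORT-seq, a plate form of single-cell sequencing that counts molecular identifiers at the 3' end of transcripts.

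The labels name the cells neural stem cells. The authors' cluster 1 goes against that label: all 18 microglia markers on the list used here were highest in it. It holds 36 of the 149 kept cells, with 9, 18 and 9 cells on plates 1, 2 and 3. The summed microglia markers lay between 41252 and 50019 CPM (estimated transcripts scaled to a total of 1000000) in cluster 1, against 122 to 979 CPM over plates in clusters 0, 2, 3 and 4. Markers of border macrophages (6 in the table) and of monocytes or granulocytes (4 in the table) had no identifier in any cluster, cluster 1 included. Cluster 1 is therefore called microglia-like. Clusters 0 and 2 were highest for the 8 oligodendrocyte markers, cluster 3 for the 8 markers of astrocytes or quiescent stem cells and cluster 4 for the 8 markers of activated stem cells or neuroblasts. The kept cells held 295836, 409212 and 475164 identifiers in all on the 3 plates. No 2 wells had identical values. The clusters were drawn by the authors from the same expression values, so the gap between cluster 1 and the rest describes them and was given no test.

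C1q is the recognition part of the first complex of the classical complement pathway. Its A, B and C chains join in equal numbers into a bundle of collagen-like stalks with globular heads, which bind antibody, dying cells and other targets and then switch on the proteases C1r and C1s. In the mouse brain microglia are the main source of C1q, and C1q takes part there in the marking of synapses for removal.

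The genes lie side by side on the minus strand of chromosome 4 (GRCm38, GENCODE vM21). C1qb spans 136880129 to 136886187, C1qc 136889804 to 136893065 and C1qa 136895917 to 136898803. The locus is 18675 bases long, with gaps of 3616 bases between C1qb and C1qc and 2851 bases between C1qc and C1qa. No annotated gene overlaps any of them, and the nearest other gene, Epha8, begins 30616 bases beyond C1qa. The longest transcript of each has 3 exons and 1040 (C1qa), 1088 (C1qb) or 1203 (C1qc) bases. Promoter windows running from 250 bases before to 50 bases after the start site are shown because the genes share a locus and were found in the same cells. In the RefSeq table (GRCm38.p6) 2 of the 3 genes matched, C1qb at chr4:136886151-136886450 and C1qc at chr4:136892865-136893164, both on the minus strand. They are printed 5′ to 3′ with capitals for GAGGAA, the core bound by PU.1 and other ETS factors, on either strand.
C1qb: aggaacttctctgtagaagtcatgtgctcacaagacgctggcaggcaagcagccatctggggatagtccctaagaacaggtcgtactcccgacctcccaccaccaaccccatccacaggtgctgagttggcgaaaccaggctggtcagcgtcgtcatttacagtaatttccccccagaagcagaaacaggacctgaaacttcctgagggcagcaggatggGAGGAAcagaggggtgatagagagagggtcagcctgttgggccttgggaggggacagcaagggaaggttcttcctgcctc
C1qc: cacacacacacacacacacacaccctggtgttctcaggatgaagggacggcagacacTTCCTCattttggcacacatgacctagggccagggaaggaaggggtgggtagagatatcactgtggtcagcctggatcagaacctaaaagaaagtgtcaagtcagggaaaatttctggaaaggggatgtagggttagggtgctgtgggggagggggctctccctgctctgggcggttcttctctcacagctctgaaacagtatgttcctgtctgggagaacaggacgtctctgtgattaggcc
The PU.1 core began 30 bases before the C1qb start site on the gene's strand. In C1qc it lay on the opposite strand, read here as TTCCTC, with its first base 193 before the RefSeq start site. GENCODE begins the C1qc gene at 136893065, inside this window and before the RefSeq start site, so the distance depends on the annotation. The core occurs in 28.3% of the 32851 promoter windows of the same table. The run TGCTGAC, letters bound by MAF factors (4.67% of windows), and TATAAA, the TATA box (13.6%), were searched on both strands too and are in neither window. No motif overlapped another.

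In the microglia-like cluster 1 the 3 chains together made up 1.34% of all transcripts. Because the assay counts 1 end of each transcript, levels of different chains can be set side by side without scaling by length. C1qb was at 7134, 6200 and 6433 CPM in cluster 1 on plates 1, 2 and 3, or 6589 ± 486 CPM (SD, n = 3 plates). C1qc was at 4660, 4371 and 5464 CPM, or 4831 ± 566 CPM. C1qa was at 1956, 2392 and 2476 CPM, or 2275 ± 280 CPM. On each plate the order was C1qb, C1qc and C1qa, and the plate ranges of the chains did not overlap. Over all cluster 1 cells C1qb ranked 12, C1qc 19 and C1qa 40 among all genes.

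The sum of the 3 chains stood at 13749, 12964 and 14373 CPM in cluster 1 (13695 ± 706 CPM, SD, n = 3 plates). The counts behind these levels are 407, 952 and 342 identifiers. The sum therefore differed less between plates, in proportion, than any single chain. In the other clusters it was 159 ± 114 CPM in cluster 0, 176 ± 172 CPM in cluster 2 and 160 ± 173 CPM in cluster 3 (SD, n = 3 plates each), and 207 ± 31.5 CPM in cluster 4 (n = 2 plates). These 4 means lie closer together than the SD of clusters 0, 2 and 3. They weigh the plates equally, also where a plate holds 1 cell of the cluster, as for cluster 0 on plate 1 and clusters 3 and 4 on plate 2. With the plates pooled, the sum was 104, 93.6, 307 and 190 CPM in clusters 0, 2, 3 and 4, so their order depends on how the plates are weighed and was not tested.

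**Figure D1:**
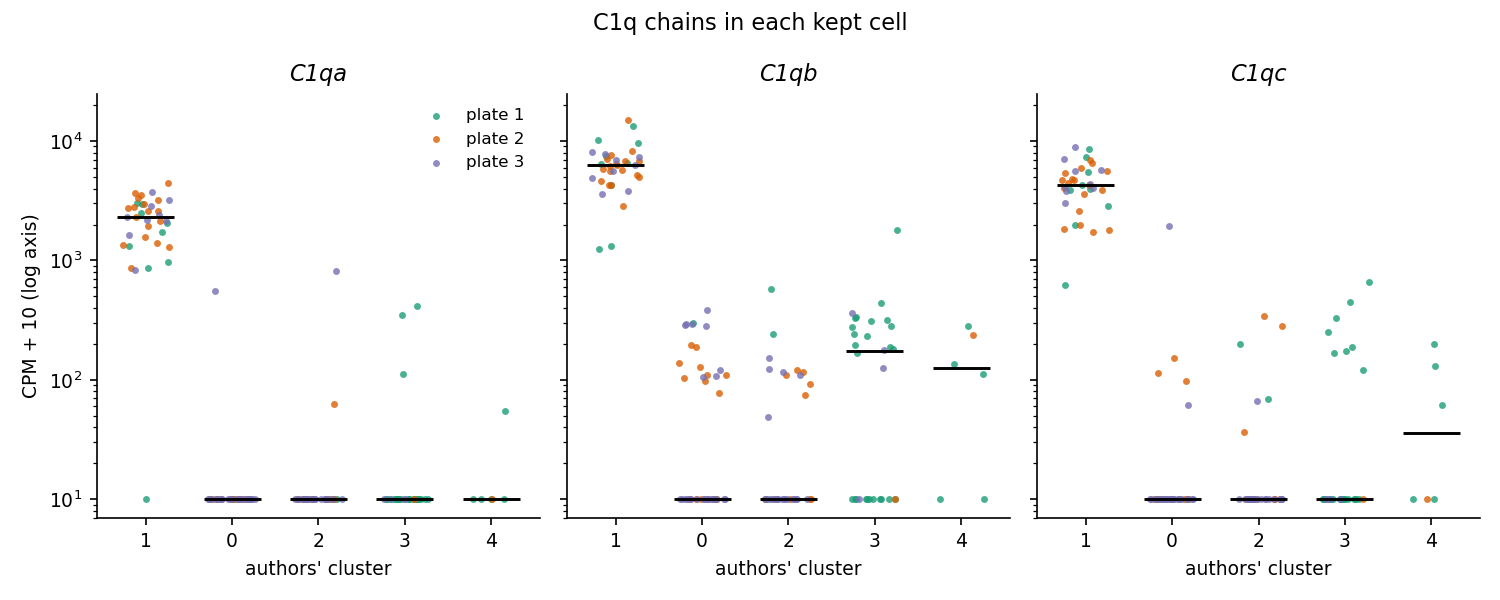
Level of each C1q chain in every kept cell, as CPM + 10 on a log axis, by the authors' cluster, coloured by plate; black lines are medians and a cell with no identifier sits at 10. Cluster 1 cells stand above nearly all others for each chain, and 1 cluster 1 cell of plate 1 has no C1qa.

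Cell by cell, few values of cluster 1 and of the other clusters overlapped. The summed level ran from 1857 to 25024 CPM in the 36 cells of cluster 1, with a median of 12732 CPM, against a median of 67.3 CPM and a maximum of 2741 CPM in the 113 cells of the other clusters. Only 1 cluster 1 cell was at or below that maximum, and 2 cells outside were at or above the cluster 1 minimum. The lowest cluster 1 cell, in well A13 of plate 1, held 0 identifiers of C1qa, 2 of C1qb and 1 of C1qc among 1615. It had no identifier of any of the 18 microglia markers, the authors call it G2M, and its autofluorescence was 218 units, the lowest of the cluster 1 cells on its plate. Without it, cluster 1 kept its C1q level within 1 SD of the plates.

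The order of the chains was the same on the 3 plates, while their ratios varied. C1qa was at 0.274, 0.386 and 0.385 of the level of C1qb in cluster 1 on plates 1, 2 and 3, a log2 ratio of -1.54 ± 0.28 (SD, n = 3 plates). C1qc was at 0.653, 0.705 and 0.849 of C1qb, a log2 ratio of -0.45 ± 0.19. C1qa was at 0.420, 0.547 and 0.453 of C1qc, a log2 ratio of -1.09 ± 0.20. All 3 ratios lay below 1 on every plate. The exact two-sided sign-flip permutation test gave p = 0.25 for each pair, adjusted over 3 pairs to 0.25, which is the smallest value that 3 plates allow, so the design cannot pass a threshold of 0.05.

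Within single cells the order held less often. C1qb identifiers outnumbered those of C1qa in 35 of 36 cluster 1 cells, and C1qc outnumbered C1qa in 32. C1qb outnumbered C1qc in 29 cells, equalled it in 1 and was below it in 6. The full order of C1qb, C1qc and C1qa was seen in 25 cells. Among the 31 cells with at least 20 C1q identifiers, C1qa took 6.67 to 35.7% of a cell's C1q identifiers (median 17.4%), C1qb 30.8 to 73.1% (48.4%) and C1qc 8.96 to 51.5% (35.7%). Around its plate's mean, the share of C1qa varied 0.741 times as much as binomial counting alone would give, that of C1qb 1.63 times and that of C1qc 1.97 times. These variance ratios cover cells that are not replicates and carry no test.

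The cells at the ends of these ranges show how far single cells departed from the usual order. In well C7 of plate 2, C1qa, C1qb and C1qc had 12, 49 and 6 identifiers, so C1qc was the least abundant chain. In well D11 of the same plate they had 5, 11 and 17, and C1qc was the most abundant chain. The highest C1qa share, 35.7%, was in well D18 of plate 2, with 10, 14 and 4 identifiers. The lowest C1qa share, 6.67%, was in well A2 of plate 1, with 2, 20 and 8 identifiers, and the lowest C1qb share, 30.8%, was in well B3 of plate 3, with 8, 12 and 19. The cell of well A2 kept the usual order, and the other cells named here, on plates 2 and 3, departed from it.

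**Figure D2:**
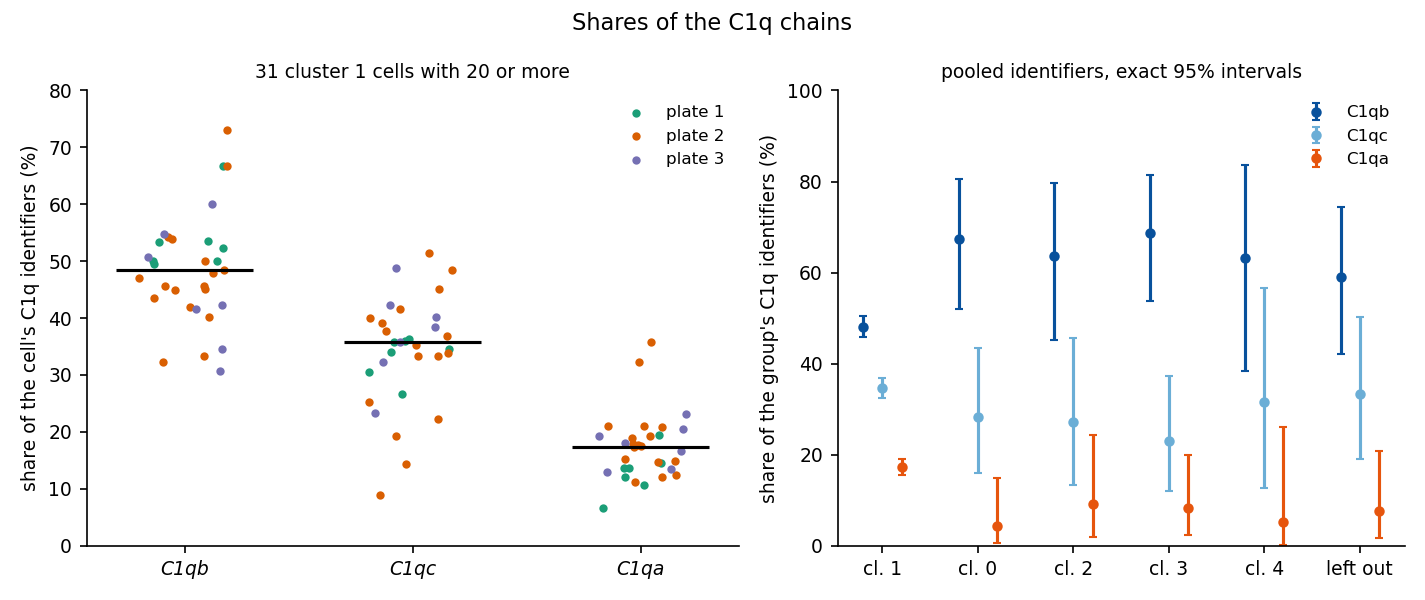
Left, share of each chain among a cell's C1q identifiers in the 31 cluster 1 cells with at least 20, coloured by plate, with medians at 48.4, 35.7 and 17.4% for C1qb, C1qc and C1qa. Right, share of each chain among the pooled C1q identifiers of cluster 1, of the other clusters and of the wells left out, with exact 95% binomial intervals: C1qa is at 17.2% in cluster 1 and at 4.35 to 9.09% in the other clusters.

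Detection was nearly complete in cluster 1. C1qb and C1qc had an identifier in 36 of 36 cells (exact 95% binomial interval 90.3 to 100%) and C1qa in 35 of 36. All 3 chains were seen together in 35 of 36 cells, or 97.2% (85.5 to 99.9%), against 2 of 113 cells outside, or 1.77% (0.215 to 6.25%). Median depth was 3448 identifiers in cluster 1, and in clusters 0, 2, 3 and 4 it was 9472, 8503, 4185 and 17293, so cluster 1 cells were the shallowest. With every cell thinned to 1000 identifiers, all 3 chains were expected in 86.0% of cluster 1 cells and any chain in 99.8%. The same thinning gave any chain in 13.6% of cells outside cluster 1, where 54.0% (61 of 113 cells) had one before thinning. Intervals here and below cover counting error only.

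Among the microglial genes compared, C1qb had the highest detection at equal depth. The cell of well A13 on plate 1 had no identifier of C1qa or of the other microglial genes compared. It held 2 of C1qb and 1 of C1qc, and the ranking without it is not given here. Thinned to 1000 identifiers, C1qb was expected in 99.0% of cluster 1 cells, C1qc in 97.1% and C1qa in 88.0%. Csf1r, the receptor microglia need to survive, came to 95.1%, and the purine receptor gene P2ry12 to 88.9%. Tyrobp, the signalling adaptor of Trem2, and Trem2 itself came to 53.6 and 54.1%. C1qa had 293 identifiers in cluster 1, C1qb 819 and C1qc 589, against 749 for Csf1r, 510 for P2ry12, 106 for Tyrobp and 122 for Trem2.

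Levels varied between cluster 1 cells more than counting alone gives for C1qb and C1qc, and little more for C1qa. The variance of the cell counts around the plate level was 3.41 times the counting variance for C1qb, 2.23 times for C1qc and 1.16 times for C1qa. For the sum it was 4.12 times. The same measure was 6.52 for P2ry12, 4.24 for Cx3cr1, the fractalkine receptor, 3.86 for Ctss, a cathepsin and 2.78 for Csf1r. Genes with more counts can show a larger ratio at the same spread, and C1qa has the fewest counts of the 3 chains.

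Over the 36 cluster 1 cells the chains were loosely related. Spearman's rho of their CPM was 0.45 between C1qa and C1qb, 0.34 between C1qa and C1qc and 0.31 between C1qb and C1qc. The relations differed by plate: between C1qb and C1qc rho was 0.90 on plate 1 (9 cells), 0.05 on plate 2 (18 cells) and 0.05 on plate 3 (9 cells). Plate 1 holds the cell of well A13, which is low for all chains. The cells of a plate share a library, all values of a cell share its depth, and no p is given over cells.

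By the same measure, the genes most like the summed C1q level over these cells, among 543 seen in at least 50% of them, were Unc93b1, which carries nucleic acid sensing Toll-like receptors to endosomes (rho 0.57), and Ifngr1, the interferon gamma receptor (0.53). Fau, Rps25, Gnb2l1, Sft2d1 and Cst3 were next, at 0.50 to 0.45. None of the 8 microglial genes compared was among them: Tyrobp was at 0.28, Csf1r at 0.21, P2ry12 at 0.15 and Cx3cr1 at -0.08. Over 11 sums of plate and cluster, where the contrast of cluster 1 with the rest sets the order, the closest of 1905 genes were Csf2ra, a chain of the GM-CSF receptor (rho 0.94), Ppp1r18, Marcks, Ucp2, Pla2g15, Rab11fip5 and the cathepsin gene Ctsz (0.90).

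The study's title asks about autofluorescence, and the chains were compared between brighter and dimmer cells of cluster 1, split at the median of each plate. C1qb stood at 6548, 6953 and 6373 CPM in high autofluorescence cells on plates 1, 2 and 3, against 7486, 5557 and 6446 CPM in low ones. C1qc stood at 4427, 4148 and 5926 CPM in high cells, against 4778, 4567 and 5170 CPM in low cells. C1qa stood at 1660, 2775 and 2348 CPM in high cells, against 2124, 2055 and 2552 CPM in low cells. For each chain the high cells were higher on 1 of 3 plates, which was plate 2 for C1qa and C1qb and plate 3 for C1qc, and the groups overlapped.

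In edgeR's quasi-likelihood test with plate as a block, 0 of the 3 chains and 0 of all 276 genes tested passed an adjusted p of 0.05, a background of 0%, with 5 genes at an unadjusted p under 0.05. DESeq2 called 0 genes too, with 0 at an unadjusted p under 0.05. The log2 difference of high over low cells was 0.02 for C1qa (SE 0.37, 95% interval -0.72 to 0.75), 0.04 for C1qb (SE 0.28, -0.51 to 0.59) and -0.03 for C1qc (SE 0.30, -0.62 to 0.56), with an edgeR adjusted p of 0.981 each. The intervals leave room for a change of either sign. The signs of C1qa and C1qb turned negative without the S and G2M cells, at -0.16 and -0.17, and without plate 2, at -0.23 and -0.10.

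**Figure D3:**
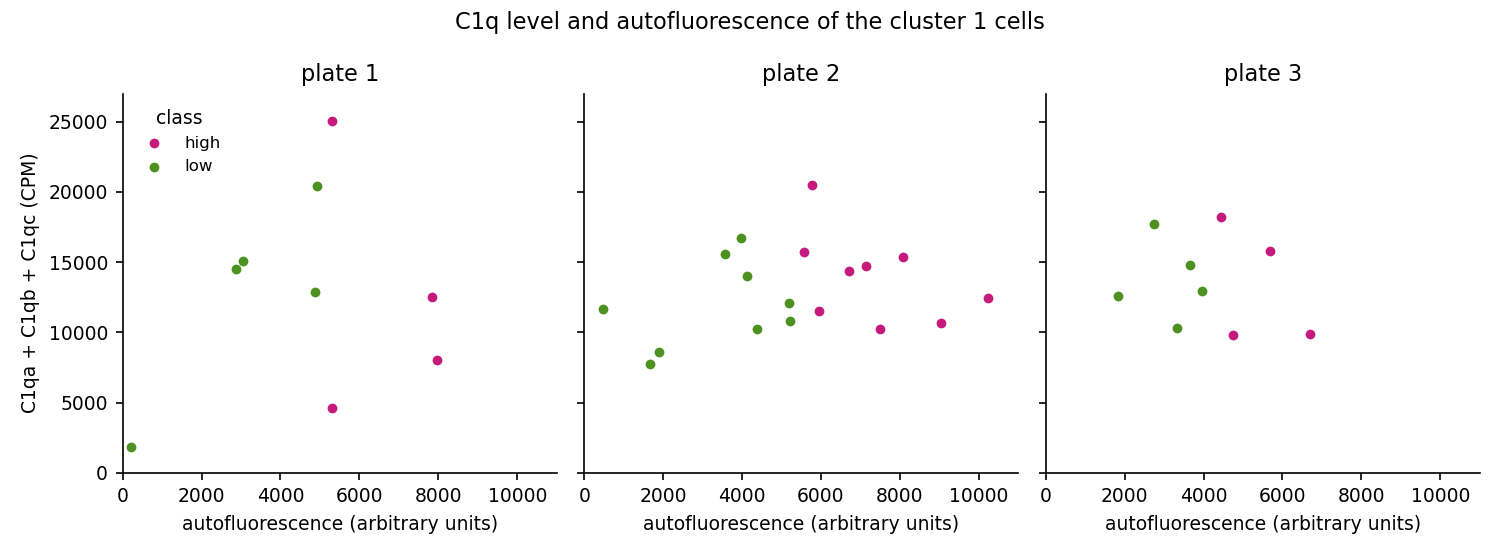
Summed level of C1qa, C1qb and C1qc (CPM) against autofluorescence (arbitrary units) in the cluster 1 cells of each plate, with cells above the plate's median in the high class and the others in the low class. High and low cells span overlapping levels on all 3 plates, and the dimmest cell of plate 1, with 1857 CPM, is the one with no microglia marker.

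Along the whole range of brightness the relation differed by plate. Spearman's rho between the summed C1q CPM and autofluorescence in cluster 1 was -0.07 on plate 1 (9 cells), 0.16 on plate 2 (18 cells) and -0.20 on plate 3 (9 cells). C1qa alone reached 0.54 on plate 2, against 0.13 and -0.18 on plates 1 and 3. Depth differed with the classes: median identifiers per cell were 2908, 3287 and 1730 in high cells, against 4361, 3848 and 2515 in low cells on plates 1, 2 and 3. The part of depth in these values was not tested.

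With cells of every cluster summed, and the classes split within each plate and cluster, all 3 chains had negative differences. C1qc stood at 398, 673 and 188 CPM in high cells on plates 1, 2 and 3, against 648, 958 and 450 CPM in low cells. C1qb stood at 643, 1142 and 233 CPM in high cells, against 1121, 1182 and 568 CPM in low cells. C1qa stood at 133, 438 and 71.9 CPM in high cells, against 285, 422 and 220 CPM in low cells. C1qb and C1qc were lower in high cells on 3 of 3 plates and C1qa on 2 of 3.

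None of these differences passed the test. By edgeR, the log2 difference of high over low was -0.74 for C1qc (SE 0.26, adjusted p = 0.665), -0.61 for C1qb (SE 0.27, adjusted p = 0.836) and -0.70 for C1qa (SE 0.31, adjusted p = 0.858). Of 4508 genes tested 0 passed, a background of 0%, with 245 at an unadjusted p under 0.05, the 3 chains among them, and DESeq2 called 0, with 54 at an unadjusted p under 0.05. Cluster 1 supplied 8.70 ± 6.27% of the transcripts of high cells, against 13.6 ± 6.38% of those of low cells (SD, n = 3 plates), and was smaller in high cells on each plate. The median log2 difference of the 18 microglia markers was -0.91, with 17 below 0, against 0.01 over all genes tested. The part of that smaller cluster 1 share in the C1q values was not tested.

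Around C1q, the complement list used here has 54 other genes, of which 41 were measured and 33 had an identifier. Of the 16 with at least 20 identifiers, 11 were highest in the microglia-like cluster 1. The share over all genes is not given here, so this count and that of the receptors below describe the list only. Of the proteases that C1q switches on and of the later components, few identifiers were counted. C1ra, the gene of the C1r protease, had 2 identifiers in cluster 1, and the other C1r and C1s genes were not analysed here. The 8 later components measured, among them C2, C3, C4a and C4b, had 0 identifiers in cluster 1, which allows up to 23.6 CPM each (3 counts over the cluster). Over all clusters C3 had 1 identifier and C4b 3, so the C1q chains were counted at high levels with almost no transcript of the downstream genes measured.

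Of the 11 receptors and binding partners with at least 20 identifiers, 8 were highest in cluster 1. Sirpa, the receptor for the signal carried by Cd47, was at 1274 CPM in cluster 1, against 318 CPM in cluster 3, the next highest. Itgam, a chain of complement receptor CR3, was at 865 CPM in cluster 1, against at most 25.5 CPM elsewhere. Calr, the calreticulin gene, was at 700 CPM in cluster 1 and at 189 to 346 CPM elsewhere. Lair1, an inhibitory receptor that binds collagen and C1q, was at 598 CPM in cluster 1, against at most 39.7 CPM elsewhere. Lrp1, a large endocytic receptor, was at 590 CPM in cluster 1, against 337 CPM in cluster 3.

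Of the regulators, Clu, the gene of clusterin, was highest in cluster 3 at 7080 CPM, against 291 CPM in cluster 1. Of the receptors and binding partners, Megf10, an engulfment receptor of astrocytes that binds C1q, had 0 identifiers in cluster 1. It was at 197 CPM in cluster 3 (31 identifiers), 150 CPM in cluster 0 (67 identifiers) and 86.8 CPM in cluster 2 (31 identifiers). In cluster 1, 7 genes of the list were abundant enough to test between high and low autofluorescence cells, and 0 passed by edgeR at a background of 0%, with a median log2 difference of -0.16 against -0.02 over all 276 genes.

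**Figure D4:**
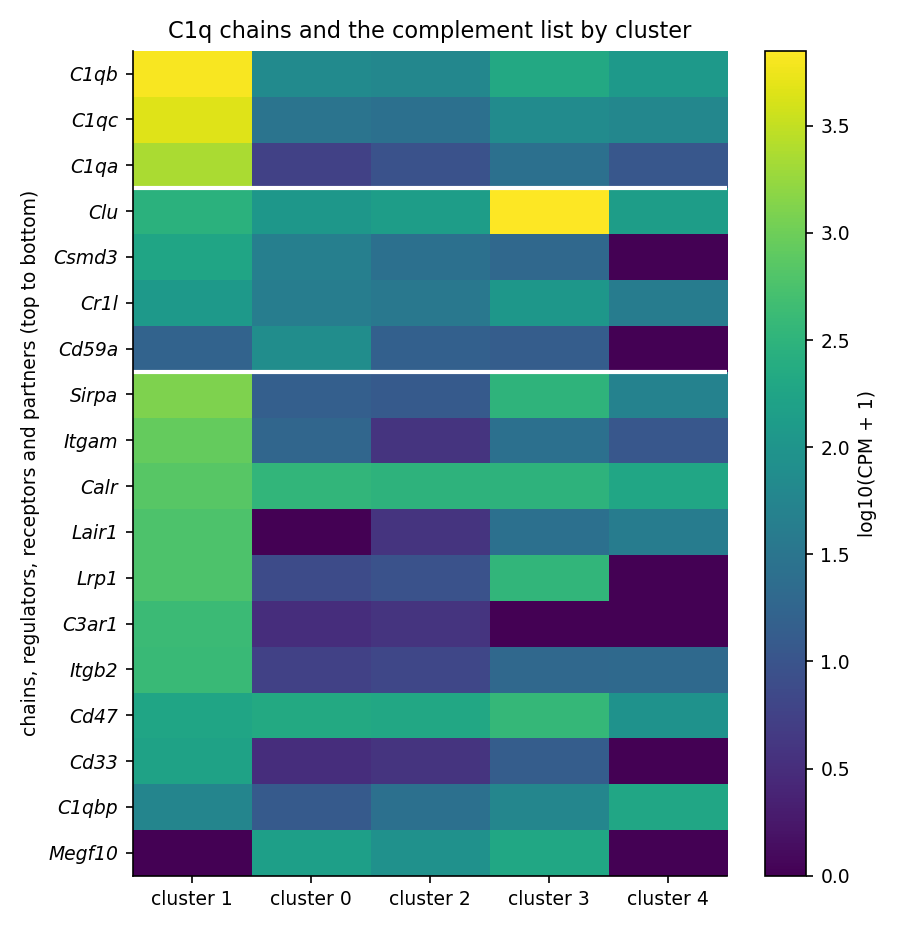
Level of the C1q chains and of genes of the complement list with at least 20 identifiers, as log10(CPM + 1) of the transcripts pooled in each of the authors' clusters; white lines part chains, regulators, and receptors and partners. The chains, Sirpa, Itgam and Lair1 are brightest in cluster 1 and Clu in cluster 3.

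Outside the microglia-like cluster the chains were rare but not absent. The 113 other cells held 146 C1q identifiers, against 1701 in the 36 cells of cluster 1. Their summed level was 288, 106 and 72.6 CPM on plates 1, 2 and 3, which is 2.09, 0.817 and 0.505% of the cluster 1 level of the same plate. Plate 1 was also the highest per cell, with 2.26 identifiers per cell, against 1.33 on plate 2 and 0.635 on plate 3. The mean over plates was 155 ± 116 CPM (SD, n = 3), and 89.2 CPM without plate 1. The C1q identifiers of the cluster 1 cells were 407, 952 and 342 on plates 1, 2 and 3. The source of the counts outside was not tested.

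By cluster, any chain was seen in 21 of 30 cells of cluster 3, 20 of 42 of cluster 0, 15 of 35 of cluster 2 and 5 of 6 of cluster 4. Thinned to 1000 identifiers the shares were 23.4% in cluster 3, 17.4% in cluster 4, 9.68% in cluster 0 and 9.39% in cluster 2. Cluster 3 has 25 of its 30 cells on plate 1. On that plate its C1q level was 344 CPM, against 290 CPM in the 1 cell of cluster 0, 370 CPM in the 3 cells of cluster 2 and 185 CPM in the 5 cells of cluster 4. Plate and cluster cannot be told apart in the higher share of cluster 3.

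The make-up of the chains outside differed from that in cluster 1. C1qa made up 6.85% of the C1q identifiers outside (10 of 146, exact 95% binomial interval 3.33 to 12.2%), against 17.2% in cluster 1 (15.5 to 19.1%). C1qb made up 66.4% (58.2 to 74.0%) outside, against 48.1% (45.7 to 50.6%) in cluster 1. C1qc made up 26.7% (19.7 to 34.7%) outside, against 34.6% (32.4 to 36.9%) in cluster 1. The lower C1qa share and the higher C1qb share were seen in each of the 4 other clusters and on each plate. By plate, C1qa took 6.49, 5.56 and 9.09% of the identifiers outside, against 14.3, 18.5 and 17.3% in cluster 1. The counts on a single plate are small, and the interval outside reached the cluster 1 value on each plate: 2.14 to 14.5%, 0.680 to 18.7% and 1.92 to 24.3%.

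Set against its own level in cluster 1, C1qb had the highest mean level outside of the genes compared. That level outside was 1.54% of that in cluster 1 on average over plates, with a range of 0.724 to 2.80%. C1qc was at 0.883% (0.365 to 1.53%) and C1qa at 0.492% (0.249 to 0.960%). The 8 other microglial genes ran from 0.448% for Tyrobp to 1.16% for Cx3cr1. On each plate C1qb was above C1qc and C1qa in this measure. Ranges over plates overlap for all 11 genes, and no test was made.

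**Figure D5:**
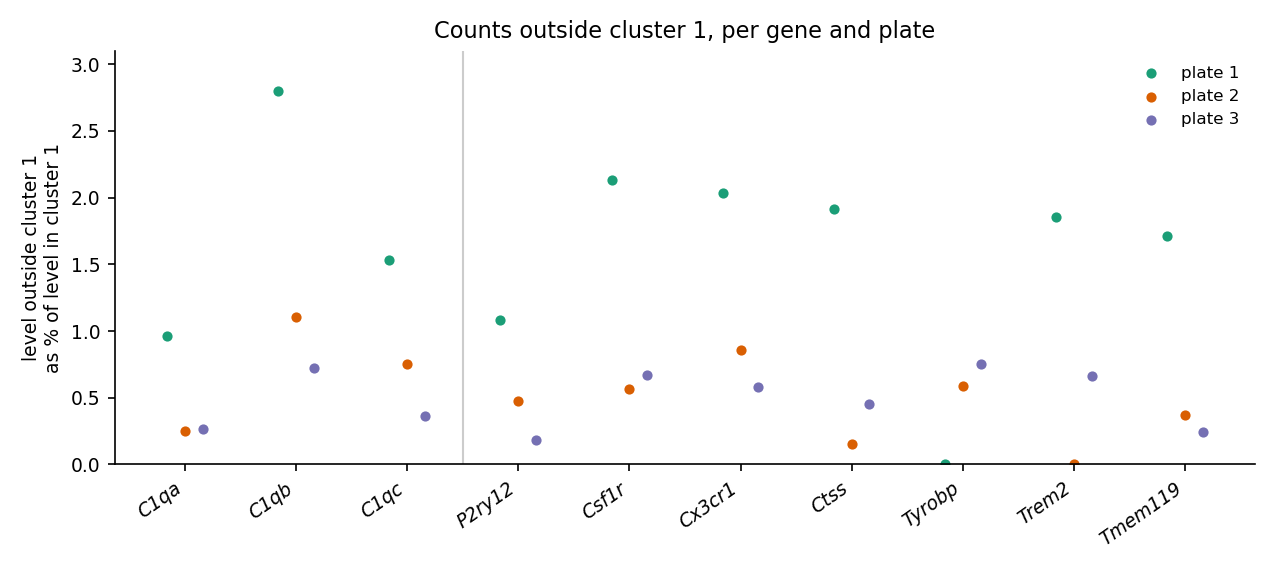
Level outside cluster 1 as a percentage of the level in cluster 1 (scaled identifiers on both sides) for the C1q chains, left of the grey line, and other microglial genes, by plate. C1qb is at 0.724 to 2.80%, the highest point of the plot being plate 1, while Tyrobp on plate 1 and Trem2 on plate 2 are at 0.

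Most cells outside held few C1q identifiers. Of the 113 cells 52 had 0, 31 had 1, 15 had 2, 13 had 3 to 9 and 2 had 10 or more. The highest, in cluster 3 of plate 1 (well A3), held 0, 11 and 4 identifiers of C1qa, C1qb and C1qc among 6169. It also held 52 identifiers of 15 of the 18 microglia markers, or 0.843% of its total, against a median of 4.72% in cluster 1 and 0.0238% outside. The next, in cluster 0 of plate 3 (well D20), held 2, 1 and 7 of 3644, with 27 identifiers of 11 microglia markers. Without both cells C1qa made up 6.61% and C1qb 70.2% of the 121 identifiers left outside. No doublet caller was run on these plates.

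The wells that the authors left out of their filtered table carried C1q too. They number 20, 34 and 32 on plates 1, 2 and 3 and carry no cluster or autofluorescence value here. Any chain was seen in 28 of 86 of these wells, or 32.6% (22.8 to 43.5%), and by plate in 11 of 20, 11 of 34 and 6 of 32. All 3 chains were seen in 1 of them. The wells held 39 C1q identifiers in all, 14, 19 and 6 on plates 1, 2 and 3, against 77, 36 and 33 in the 34, 27 and 52 kept cells outside cluster 1. Per well, plate 1 was again the highest and plate 3 the lowest.

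These wells are shallow, with median totals of 131, 286 and 313 identifiers on plates 1, 2 and 3. Scaled to 1000000 identifiers, their C1q level was 4000, 1575 and 460 on the 3 plates, against 289, 107 and 73.1 in kept cells outside cluster 1. The level thus stood between those of the other clusters and of cluster 1 on each plate. Their chains were split into 7.69% C1qa, 59.0% C1qb and 33.3% C1qc, and the intervals, 1.62 to 20.9% for C1qa, take in the shares of cluster 1 and those outside. A single well, C17 of plate 2, held 8 of the 39 identifiers, with 1 of C1qa, 5 of C1qb and 2 of C1qc among 557, and 15 identifiers of 8 microglia markers.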

How the data were processed

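The deposited tables give estimated counts per gene and well, that is, identifier counts which the authors had corrected for collisions. Inverting that correction for 4096 possible identifiers returned a whole number (tolerance 1e-06) in all 363716 nonzero entries; these are the identifiers counted above. Per the submitters' processing notes, the tools were Seurat 4.1.1, BWA 0.7.15 and R 4.2.0, and mm10 and hg19 are the builds listed, with no role stated. Autofluorescence is a deposited intensity per cell in arbitrary units. The deposited count of genes per cell served only to compare kept cells (at least 579) with wells left out (at most 421). The deposited percent of mitochondrial transcripts and 11 other columns per cell were not used. The plate was read from the last digit of the library name, which no label states, as 1 experiment per plate. Cells are not replicates: estimates were summed per plate and class and rounded. A lone cell of a plate and cluster counted as low. High and low classes share their plate, so edgeR 4.0.16 (TMM, its low-count filter, quasi-likelihood F test, Benjamini-Hochberg at 0.05) was run in R 4.3.3 with plate as a block, and tested on simulated data. DESeq2 1.42.0 was an alternative, as were other scalings, filters and left-out plates or cells. The p-values measure the spread between these sums. Thinning was computed exactly from the hypergeometric distribution. The 3 chains, 8 microglial genes, the complement list with its 6 highest genes in cluster 1, and the 8 genes most alike were named by rule, except a few that are not reported here; other genes named were chosen after their values were seen. Members and lists were chosen with earlier results of these data known.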

Additional observations from a re-analysis of the deposited data

How the results depend on the processing

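Of 147 alternative values for 16 results, 127 kept their direction, their side of the threshold or their size. In cluster 1 the near-zero differences between high and low autofluorescence turned sign: C1qa was at -0.22 (log2) with no filter on low counts, -0.047 with only the dimmest and brightest cells of a 3-way split of autofluorescence, -0.16 without S and G2M cells and -0.022 without the cell lacking microglia markers, and C1qb at -0.20, -0.15 and -0.17 in the first 3 of these. C1qc was at 0.030 with no replicate block. Leaving out 1 plate in turn gave -0.23 to 0.16 for C1qa, -0.10 to 0.14 for C1qb and -0.063 to 0.050 for C1qc. The edgeR adjusted p of the chains stayed at 0.968 or above throughout. Within plate and cluster, edgeR called 2 genes with no filter, 5 without lone cells of a plate and cluster (added after the data were seen) and 0 to 4 with 1 plate left out, the 4 being without plate 1, against 0 in the main analysis; the chains were negative in every alternative, with adjusted p from 0.142 to 1.00. The fit without the block changed no other call or direction. Any chain outside cluster 1 was seen in 23.9% of cells at 2 or more identifiers, and in 7.52, 13.6 and 23.3% thinned to 500, 1000 and 2000. All 3 chains were seen in 55.8 and 86.0% of cluster 1 cells thinned to 500 and 1000. Of the 3 chains, C1qa had the lowest expected detection in cluster 1 cells thinned to 1000 identifiers. The causes were not tested.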

Other observations

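The authors' cell cycle calls part the cluster 1 cells mainly into G1 and G0. The summed C1q level was 16205, 12514 and 15796 CPM in G1 cells of plates 1, 2 and 3 (5, 10 and 2 cells), against 6993, 13109 and 13956 CPM in G0 cells (2, 7 and 7 cells). It was higher in G1 cells on plates 1 and 3 and lower on plate 2, and no test was made. The only cells called S were 1 on plate 1 at 14474 CPM and 1 on plate 2 at 15398 CPM.

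Genes of the C1q-like family, which encode secreted proteins with a C1q globular domain that act at synapses, were nearly unseen in these plates. C1ql1 had 2 identifiers, both in cluster 4, C1ql3 had 1, Cbln1 and Cbln3 had 2 each and C1ql2 had 0, none of them in cluster 1. C1ql4, Cbln2 and Cbln4 were not analysed here.

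Well names read as plate positions, which no label states, place 59 of the 113 cells outside cluster 1 directly beside a well that holds a cluster 1 cell. These held 1.66 C1q identifiers per cell (exact 95% Poisson interval 1.35 to 2.02), against 0.889 (0.655 to 1.18) in the 54 others. By plate the values were 2.52, 1.58 and 0.789 beside such a well, against 1.85, 0.750 and 0.545 elsewhere. The 2 cells with at least 10 C1q identifiers, 15 in well A3 of plate 1 and 10 in well D20 of plate 3, both lay beside such a well. Without them, an alternative chosen after seeing the data, the values beside such a well were 1.28 in all and 1.90, 1.58 and 0.278 by plate, so the difference was near 0 on plate 1 and reversed on plate 3. In the wells left out, the values were 0.375 (0.171 to 0.712) in 24 wells beside a cluster 1 cell, against 0.484 (0.326 to 0.691) in 62 others. The share of cells outside cluster 1 with any chain was 55.9% beside such a well, against 51.9% elsewhere. By plate it was 71.4, 68.4 and 26.3% beside such a well, against 76.9, 50 and 42.4% elsewhere, so it was higher on plate 2 and lower on plates 1 and 3. No test was made over wells.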
